A study of Mus musculus with 15 samples.

Results

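The cytochrome P450 genes described here are the 70 genes, of 18194 measured, whose array symbol is Cyp followed by a number, a letter and a number, as in Cyp2e1. Each gene was read from 1 probe set that names no other gene, the one with the highest mean signal over the 15 arrays. Cyp51 (sterol 14-demethylase), Cyp4a12a and Cyp4f41-ps have symbols of another form and fall outside that rule. Of the 70 genes, 34 belong to family 2, 11 to family 4, 5 to family 3 and 3 to family 1. A further 9 act on sterols, bile acids or vitamin D (Cyp2r1 among them), 5 make steroid hormones, 2 break down retinoic acid, and Cyp20a1 has no settled substrate.

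Ribosome-bound RNA was taken from kidneys of mice carrying Tg:Col1a1-eGFPL10a, in which the collagen 1α1 promoter and enhancer drive L10a, a protein of the large ribosomal subunit, fused to eGFP. Pulling on the tag (TRAP, translating ribosome affinity purification) yields the bound fraction, enriched in messages translated by the collagen-making cells that the labels call kidney pericytes, and leaves the unbound fraction. The bound groups were day 0 after sham surgery (arrays 1 to 3), day 2 (arrays 7 to 9) and day 5 (arrays 10 to 12) after unilateral ureteral obstruction (UUO), a block of urine flow that injures tubules and scars the kidney. The unbound groups were day 5 after UUO (arrays 13 to 15) and day 0 after sham surgery (arrays 4 to 6), and no unbound arrays of day 2 were used. All groups carry the transgene on a C57/129sv background, with sex given as both and age as P14-P300 in the labels, which leave unsaid whether each array of a group stands for its own animal. The p-values therefore measure the spread between these samples, which may be technical, and 3 arrays a group limit the precision.

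Cytochrome P450 enzymes are membrane-bound haem proteins that insert 1 oxygen atom into lipids, hormones, vitamins or drugs, using electrons passed on by a reductase. Families 1 to 3 mostly oxidize foreign compounds and arachidonic acid, family 4 oxidizes the far end of fatty acids and eicosanoids, and the higher families make or break down steroids, bile acids, vitamin D and retinoic acid. In the kidney the proximal tubule holds most of them, and it makes the active hormone form of vitamin D and vasoactive products of arachidonic acid.

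Levels below are normalized log2 signals, differences are log2 differences ± standard error, and adjusted p-values are from limma, fitted over all 16861 genes that passed a filter on low signal and adjusted by the Benjamini-Hochberg method, with 0.05 as the threshold. The filter kept 56 of the 70 genes, and the 14 it removed lay between 0.21 and 4.50 on every array. Of all 70 genes, 34 were above the negative control probe sets on all 3 arrays of at least 1 group, 20 on all 15 arrays, and 16 were at or below them on every array. Where every array of a group was at or below those controls, its level is only a bound, and a fold against it is given as at least that fold. Probe sets differ in brightness, so no level of 1 gene is set against that of another. The 16 genes never above the controls include Cyp11b2 (aldosterone synthase), Cyp1a2, Cyp2c29, Cyp2b9 and Cyp8b1.

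The labelled cell type was checked first. Of 15 fibroblast markers tested, 12 were higher in the bound than in the unbound fraction on day 0 and 10 on day 5, with 0 lower on either day. Podocyte markers were also higher in the bound fraction, 6 of 6 on day 0 and 4 of 6 on day 5. So were 7 and 6 of 11 markers of pericytes and smooth muscle. Over all genes, 4.83% were higher on day 0 and 6.38% on day 5. The mean level of the fibroblast markers was 9.38 to 10.30 on the bound and 7.53 to 8.20 on the unbound arrays of day 0. Tubule RNA was nonetheless present in the bound fraction, where the mean level of 22 proximal tubule markers was 9.72 to 10.47 on day 0, against 10.50 to 11.36 in the unbound fraction. Arrays of a group correlated at 0.918 to 0.973. Arrays 6, 9, 12 and 15 were brighter than the other 11, with hybridization controls averaging 12114 to 12905 against 4727 to 5864 intensity units, and none of them is a day 0 bound array. The Gapdh 5' to 3' ratio was 0.0269 on array 11 and lay between 0.178 and 0.583 elsewhere.

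Arrays 9, 12 and 15, which belong to the bound groups of day 2 and day 5 and to the unbound group of day 5, also stood apart in sex-linked transcripts. The mean of the Y-linked genes Eif2s3y, Kdm5d and Uty was 1.65 to 3.05 on these 3 arrays and 6.73 to 9.30 on the other 12. Xist, the transcript of the inactive X chromosome, was at 8.71 to 11.40 on these 3 arrays, at 1.16 to 4.01 on arrays 7, 10, 11, 13 and 14, and at 6.07 to 9.84 on the others. All day 0 arrays (1 to 6) and array 8 thus carried both signals, while each day 5 array was high in only 1 of them. Sex composition may therefore differ between day 0 and day 5, and cannot be told apart from obstruction in those comparisons. Cyp4a12a, a P450 known to be much higher in kidneys of male mice, was at 1.38, 2.32 and 3.84 on arrays 9, 12 and 15 and at 6.95 to 11.49 on the other 12. Several P450 genes were low on the same arrays. Cyp7b1, for instance, had its lowest level of all arrays, 9.21, on array 15, and Cyp2j13 its lowest levels, 3.33 and 3.78, on arrays 9 and 12. Array 8, whose Y-linked mean was 8.18, was also low for these genes. Cyp2j13 was at 4.78 there, against 5.45 on array 15, and Cyp7b1 at 10.31, against 10.29 on array 12. For P450 genes above the controls, each call below that is lost without arrays 9, 12 and 15 is given with them and without them. Leaving them out does not make day 0 and day 5 alike in sex-linked signal.

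**Figure D1:**
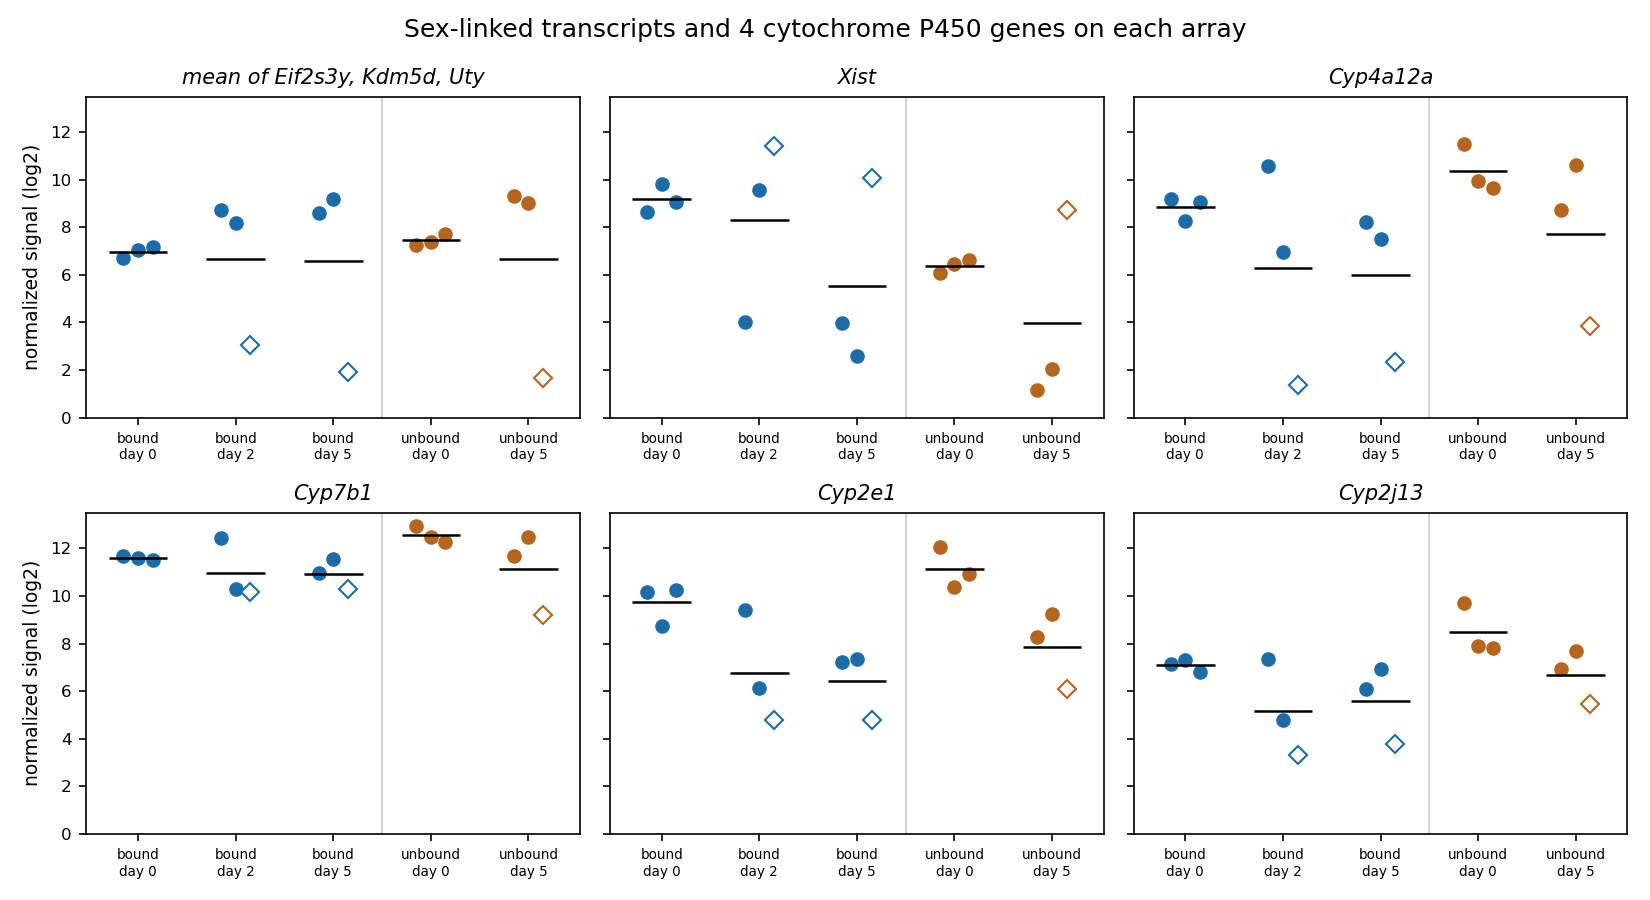
Normalized log2 signal (vertical axis) of the mean of 3 Y-linked genes, Xist and 4 cytochrome P450 genes on each array, by group (horizontal axis; blue bound, brown unbound); each point is 1 array, open diamonds are arrays 9, 12 and 15, and lines are group means. Cyp4a12a lay at 1.38 to 3.84 on the 3 open diamonds and at 6.95 to 11.49 on the other 12 arrays, and Cyp7b1, Cyp2e1 and Cyp2j13 were also low there.

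In sham kidneys 3 of the 56 tested P450 genes separated the bound from the unbound fraction past the threshold (5.36%, against 8.93% of all genes tested). Cyp1b1, Cyp20a1 and Cyp2b19 were higher in the bound fraction (4.83% of all genes were) and 0 were lower (4.1% of all genes), while 10 had an unadjusted p under 0.05 (25.1% of all genes). The median difference of the 56 genes was -0.75, against -0.13 over all genes, and 39 of the 56 values were below 0. On day 5 after obstruction 7 of the 56 genes passed (12.5%, against 14.2% of all genes), 3 higher (6.38% of all genes) and 4 lower (7.77%) in the bound fraction. Their median difference was then -0.15, against 0.03 over all genes.

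**Figure D2:**
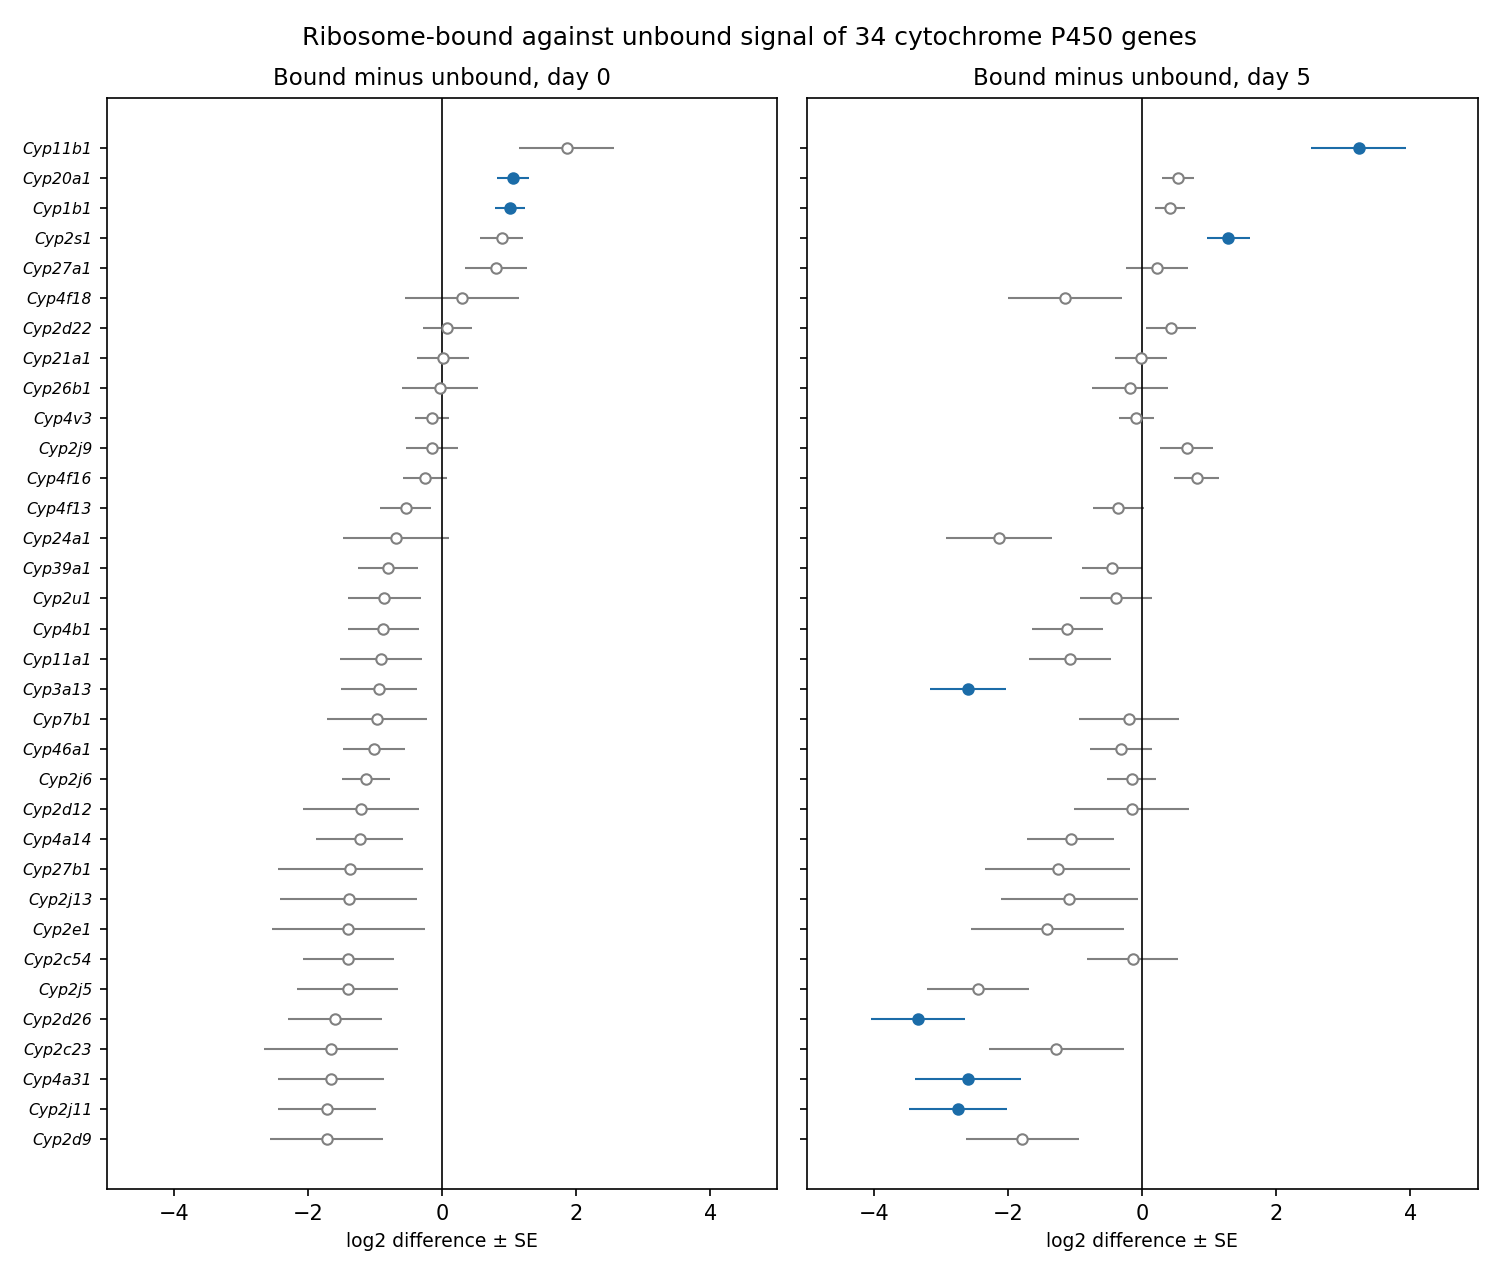
Bound minus unbound difference (horizontal axis, log2 ± SE, 3 arrays a group) of the 34 cytochrome P450 genes above the negative controls in at least 1 group, on day 0 (left) and day 5 (right), in order of the day 0 difference; filled points passed an adjusted p of 0.05. On day 0 only Cyp1b1 and Cyp20a1 passed among these 34, and on day 5 Cyp11b1 and Cyp2s1 were higher and Cyp2d26, Cyp2j11, Cyp3a13 and Cyp4a31 lower in the bound fraction.

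No gene of the 56 changed its enrichment between day 5 and day 0 past the threshold (0%, against 0.0178% of all genes). Of the 56, 2 passed without adjustment (14.2% of all genes), namely Cyp2c70, whose arrays were all at or below the controls, and Cyp4f16, an eicosanoid hydroxylase of family 4, with a change of 1.06 ± 0.46 (adjusted p = 0.332). The differences between fractions on day 5 and day 0 are therefore given side by side and are not shown to differ from each other.

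Obstruction was then set against sham surgery in each fraction. In the bound fraction 4 of the 56 genes passed on day 2 against day 0 (7.14%, against 9.27% of all genes), Cyp2s1 higher (5.6% of all genes were) and Cyp2d26, Cyp2d12 and Cyp2b19 lower (3.67%). On day 5 against day 0 there were 8 (14.3%, against 23.8% of all genes). Cyp2s1, Cyp4f16 and Cyp4v3 were higher (13.7% of all genes were) and Cyp4b1, Cyp2d26, Cyp2j11, Cyp4a14 and Cyp2j5 lower (10% of all genes). These comparisons share the 3 day 0 bound arrays, and those between fractions use the same bound arrays of day 0 and day 5. In the unbound fraction 7 genes passed on day 5 against day 0 (12.5%, against 10.4% of all genes), with Cyp2s1 and Cyp4v3 higher (6.43% of all genes) and Cyp2d12, Cyp2d26, Cyp4b1, Cyp4a14 and Cyp4f14 lower (3.93%). Between day 5 and day 2 of the bound fraction 0 of 56 genes passed (0.587% of all genes, 0.51% higher and 0.0771% lower), and 8 of 56 passed without adjustment (16.2% of all genes).

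Counted by whether the arrays of the groups overlapped at all, the shares of P450 genes stood beside those of all genes as follows. Bound and unbound arrays were apart for 19 of 56 genes on day 0 (33.9%, against 36.8% of all genes) and for 16 on day 5 (28.6%, against 43.1%). Bound arrays were apart from those of day 0 for 10 genes on day 2 (17.9%, against 21.5%) and for 18 on day 5 (32.1%, against 40.4%). Day 5 was apart from day 2 for 6 genes (10.7%, against 14.7%), and unbound day 5 from day 0 for 20 (35.7%, against 45.9%).

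The median differences were -0.32 for bound day 2, -0.10 for bound day 5 and -0.31 for unbound day 5, each against day 0, where the medians of all genes were 0.00, 0.12 and 0.01. Scaling bears on these small medians. With each array centred on its median instead of quantile normalized, the median over all genes for bound against unbound on day 5 was 0.41 in place of 0.03, and that of the P450 genes 0.06 in place of -0.15. In bulk fractions such as these, fewer cells of a type and less RNA per cell cannot be told apart.

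**Figure D3:**
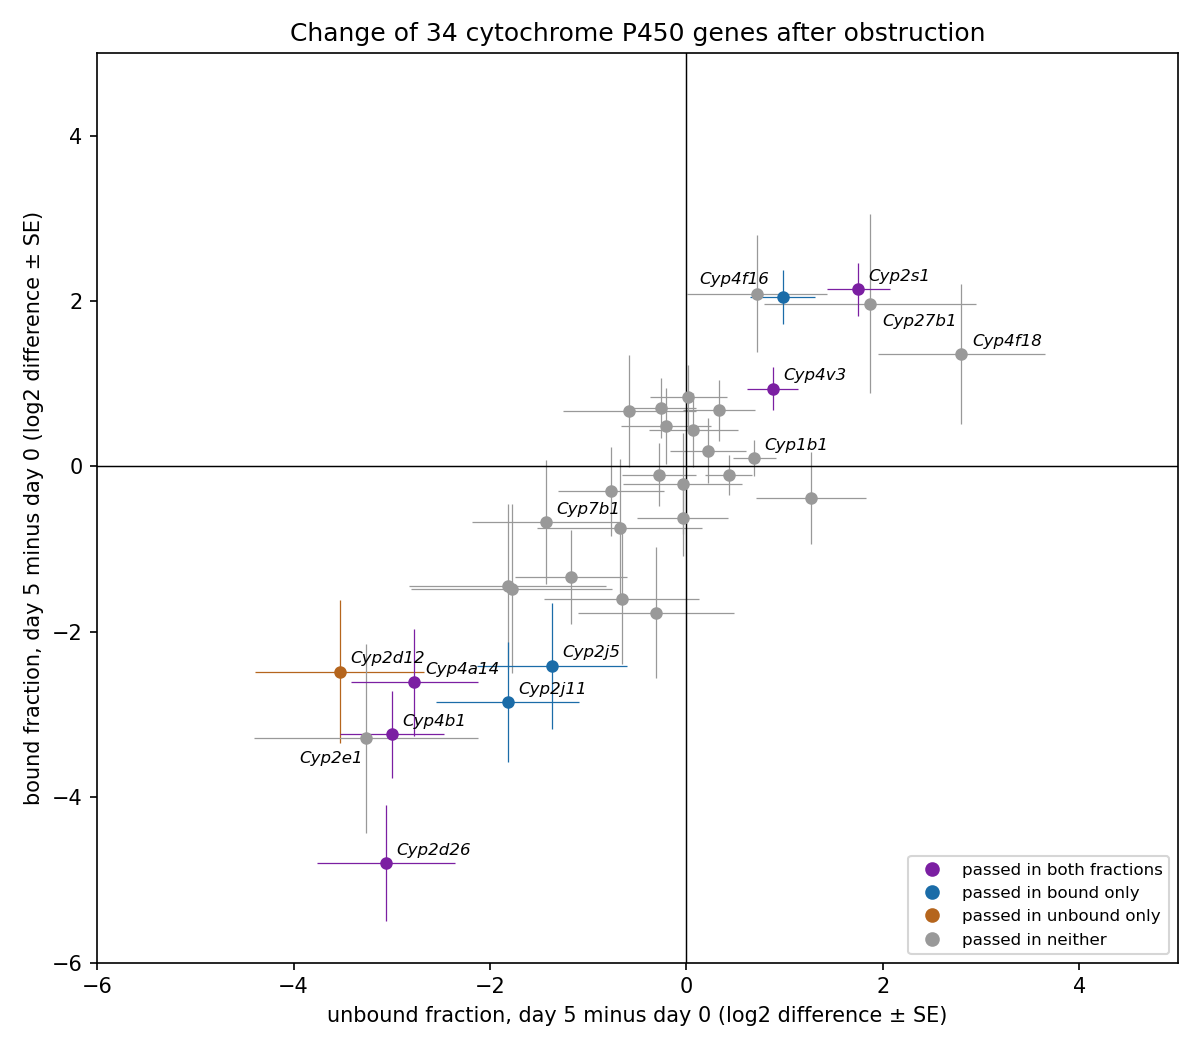
Difference between day 5 after obstruction and day 0 (log2 ± SE, 3 arrays a group) in the unbound (horizontal axis) and the bound fraction (vertical axis) of the 34 cytochrome P450 genes above the negative controls in at least 1 group, coloured by the fraction in which they passed an adjusted p of 0.05. Cyp2s1 and Cyp4v3 passed as higher and Cyp4b1, Cyp2d26 and Cyp4a14 as lower in both fractions.

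Family 1 enzymes are the classic targets of the aryl hydrocarbon receptor Ahr. Cyp1b1, its member outside the liver, oxidizes steroids, retinoids and polycyclic hydrocarbons and is known from mesenchymal cells. It lies on chromosome 17, 79706940 to 79715061 (GRCm38.p6). Its level on day 0 was 11.70, 11.77 and 11.55 on the bound arrays, against 10.56, 10.71 and 10.72 on the unbound arrays. The groups did not overlap, and the bound fraction was 2.02-fold higher (1.01 ± 0.22, adjusted p = 0.0148). On day 5 the level was 11.77, 11.54 and 12.00 in the bound and 11.29, 11.31 and 11.47 in the unbound fraction, still apart but not past the threshold (0.41 ± 0.22, adjusted p = 0.218). The call on day 0 was lost without array 2 or array 4 (adjusted p up to 0.0666), without the 4 bright arrays (adjusted p = 0.0848), with arrays centred on their medians (0.89, adjusted p = 0.158) and with the mean of its 3 probe sets (0.97, adjusted p = 0.16). All 3 probe sets gave a positive difference, of 1.01, 1.48 and 0.41.

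The level of Cyp1b1 in the bound fraction did not move with obstruction by more than its spread (0.10 ± 0.22 for day 5 against day 0, adjusted p = 0.786), and without array 12 the difference was -0.02. In the unbound fraction the day 5 arrays were all above the day 0 arrays, short of the threshold (0.69 ± 0.22, adjusted p = 0.0614). The other family members were dim. Cyp1a2 was at or below the controls on every array. Cyp1a1 was above them on 6 of 15 arrays, and passed no comparison.

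Cyp20a1, an enzyme of the endoplasmic reticulum with no settled substrate, lies on chromosome 1, 60343300 to 60388060. It had levels of 11.11, 11.26 and 11.50 on the bound arrays of day 0, against 9.98, 10.04 and 10.66 on the unbound arrays. All 3 bound arrays were above all unbound arrays, by 2.09-fold (1.06 ± 0.24, adjusted p = 0.0205). The call was lost without any 1 of arrays 2, 3, 4 and 5 (adjusted p up to 0.0928) and without the bright arrays (1.31, adjusted p = 0.0612). It was also lost with median centring (0.92, adjusted p = 0.131) and with the mean of its 3 probe sets (1.28, adjusted p = 0.0765). On day 5 the difference was 0.53 ± 0.24 (adjusted p = 0.170).

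The 250 bases before the RefSeq start of these genes (GRCm38.p6) are shown because they were the pair of P450 genes above the controls that passed as higher in the bound fraction on day 0, with capitals marking the core of the dioxin response element, to which Ahr binds, spelt GCGTG and searched on both strands.
Cyp1b1 (chr17:79715062-79715311, minus strand): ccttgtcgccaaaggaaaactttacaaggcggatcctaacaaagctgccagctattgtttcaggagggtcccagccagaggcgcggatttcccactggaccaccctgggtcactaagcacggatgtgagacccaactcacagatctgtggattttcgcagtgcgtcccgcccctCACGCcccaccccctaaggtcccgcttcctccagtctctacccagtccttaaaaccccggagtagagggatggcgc
Cyp20a1 (chr1:60343050-60343299, plus strand): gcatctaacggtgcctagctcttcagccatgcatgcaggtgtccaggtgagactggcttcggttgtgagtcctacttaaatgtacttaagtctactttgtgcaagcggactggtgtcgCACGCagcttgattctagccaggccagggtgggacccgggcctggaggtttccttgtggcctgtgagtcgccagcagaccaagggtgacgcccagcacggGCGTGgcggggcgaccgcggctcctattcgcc
The core is present once upstream of Cyp1b1, beginning 76 bases before the start. It is present at 2 places upstream of Cyp20a1, 132 and 32 bases before the start. The same letters are found in 28.2% of the 32851 RefSeq promoter windows of this length and in 12 of the 51 P450 genes that the table holds (23.5%). A P450 gene was counted if any of its windows held the letters, so the shares of windows and of genes are not counted alike. These matches are a description and not evidence of binding.

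Cyp2s1, a family 2 enzyme of epithelia outside the liver that is inducible by dioxin and acts on retinoids and prostaglandin intermediates, rose after obstruction in both fractions. It lies on chromosome 7, 25802469 to 25816525. In the bound fraction its level was 9.00, 9.20 and 8.38 on day 0, 10.67, 11.41 and 10.49 on day 2, and 11.45, 10.69 and 10.85 on day 5. Every array after obstruction was above every day 0 array, and the levels of day 2 and day 5 overlapped. The message was 3.99-fold higher on day 2 (2.00 ± 0.32, adjusted p = 0.0021) and 4.40-fold higher on day 5 (2.14 ± 0.32, adjusted p = 0.000767) than on day 0.

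Unbound Cyp2s1 had levels of 9.68, 10.11 and 9.36 on day 5, against 7.90, 8.10 and 7.91 on day 0, a 3.36-fold difference (1.75 ± 0.32, adjusted p = 0.00473). The groups again did not overlap. Both day 5 calls held when any 1 array was left out and under each of 12 other settings, with differences of 1.90 to 2.50 in the bound and 1.46 to 1.94 in the unbound fraction. The day 2 call was lost with only its own groups in the fit (adjusted p = 0.0646). On day 5 Cyp2s1 was also higher in the bound than in the unbound fraction, by 2.43-fold (1.28 ± 0.32, adjusted p = 0.0216). That call was lost without array 10, 13 or 15 (adjusted p up to 0.0844) and without arrays 9, 12 and 15 (1.19, adjusted p = 0.121). On day 0 the difference between fractions was 0.89 ± 0.32 (adjusted p = 0.103).

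The same stretch before Cyp2s1 is shown with that of Cyp4b1, described below, because their day 5 calls held in both fractions under every setting tried, and 4 motifs were searched in both.
Cyp2s1 (chr7:25816526-25816775, minus strand): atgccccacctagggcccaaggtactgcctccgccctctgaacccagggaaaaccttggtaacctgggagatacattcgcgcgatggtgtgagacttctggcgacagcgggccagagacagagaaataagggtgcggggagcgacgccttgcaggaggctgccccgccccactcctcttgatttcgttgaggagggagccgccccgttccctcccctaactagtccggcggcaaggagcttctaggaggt
Cyp4b1 (chr4:115647722-115647971, minus strand): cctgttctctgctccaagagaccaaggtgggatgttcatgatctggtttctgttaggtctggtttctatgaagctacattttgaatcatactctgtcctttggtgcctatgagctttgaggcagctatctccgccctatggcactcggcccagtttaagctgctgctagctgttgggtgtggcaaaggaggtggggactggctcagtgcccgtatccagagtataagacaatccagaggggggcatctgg
Neither window holds GCGTG, the nuclear receptor half-site AGGTCA, the HNF1 half-site GTTAAT or the TATA box TATAAA on either strand, and so no letters are in capitals. AGGTCA is found in 14.0% of all windows of this length, GTTAAT in 6.4% and TATAAA in 12.4%. Among the 51 P450 genes in the table they are found in 23.5%, 5.9% and 37.3%, again counted by gene and not by window. The absence of these letters from the window says nothing about the factors themselves.

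The other family 2 genes that passed after obstruction fell, and apart from Cyp2b19 they are known mostly from tubule and liver cells. Cyp2d26, of the 2D group that oxidizes drugs, lies on chromosome 15, 82790107 to 82794452. Its level in the bound fraction was 7.27, 7.25 and 8.22 on day 0, 3.08, 3.48 and 2.02 on day 2, and 4.05, 2.04 and 2.26 on day 5. All 6 arrays after obstruction were at or below the negative controls, and all 3 arrays before it were above them. The message was at least 8.80-fold lower on day 2 (-4.72 ± 0.70, adjusted p = 0.00129) and at least 8.62-fold lower on day 5 (-4.80 ± 0.70, adjusted p = 0.000687). Both calls held under the 12 other settings and without any 1 array, the day 5 difference being -5.42 without array 10.

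Unbound Cyp2d26 was still above the controls after obstruction, at 4.80, 6.61 and 6.97 on day 5, against 10.20, 8.39 and 8.96 on day 0. It was 8.34-fold lower (-3.06 ± 0.70, adjusted p = 0.0154). That call was lost without array 4 or 13 (adjusted p up to 0.0755; -2.40 without array 13) and without the bright arrays (adjusted p = 0.0632). On day 5 the bound fraction was at least 3.14-fold below the unbound (-3.34 ± 0.70, adjusted p = 0.0109), a call lost without arrays 9, 12 and 15 (-2.62, adjusted p = 0.111) and with differences of -3.97 and -4.01 without array 10 or 13. On day 0 it was -1.60 ± 0.70 (adjusted p = 0.176).

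Its neighbour on chromosome 15, Cyp2d12, was dimmer. It had levels of 1.00, 4.04 and 3.44 in the unbound fraction of day 5, with 2 of 3 arrays above the controls, against 6.46, 5.45 and 7.16 on day 0 (-3.53 ± 0.86, adjusted p = 0.0220). With each array set to at least its floor the difference was -2.42, or 5.36-fold. On day 2 the bound arrays were all at or below the controls, at 0.88, 0.92 and 1.92, against 5.16, 3.98 and 6.32 on day 0, which is at least 1.63-fold lower (-3.91 ± 0.86, adjusted p = 0.0146). Both groups of arrays were apart. The call in the unbound fraction was lost without array 4, 6 or 13 (adjusted p up to 0.0957; -2.63 without array 13 and -4.12 without array 14) and that in the bound fraction without array 3 (adjusted p = 0.06; -4.53 without array 2), and both without the bright arrays (adjusted p = 0.14 and 0.0685). Cyp2b19, an epidermal epoxygenase, passed as higher in the bound fraction on day 0 and as lower there on day 2 against day 0, but every one of its arrays was at or below the controls and no fold is given.

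The 2J genes make epoxides and related signalling lipids from arachidonic acid, and Cyp2j5 is the abundant one of mouse kidney. It lies on chromosome 4, 96627432 to 96664171. Its bound level was 10.78, 10.09 and 11.19 on day 0, 11.45, 8.26 and 8.83 on day 2, and 9.02, 8.86 and 6.95 on day 5. The day 5 arrays were all below those of day 0, and array 7 of day 2 was above them. The message was 5.31-fold lower on day 5 (-2.41 ± 0.76, adjusted p = 0.0387). This call was lost without array 1, 2, 3, 11 or 12 (adjusted p up to 0.138; -1.74 without array 12) and without arrays 9, 12 and 15 (-1.75, adjusted p = 0.155). Its second probe set, dimmer, gave -2.27, and with the mean of both the call was lost (-2.34, adjusted p = 0.0804), as it was without the bright arrays (adjusted p = 0.195) and with brightness as a covariate.

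Cyp2j5 was at 10.46, 11.50 and 10.23 in the unbound fraction of day 5, against 12.57, 11.67 and 12.05 on day 0, a difference of -1.37 ± 0.76 (adjusted p = 0.309). Bound minus unbound was -2.45 ± 0.76 on day 5 (adjusted p = 0.0511) and -1.41 ± 0.76 on day 0 (adjusted p = 0.274), and the groups were apart on both days. The second probe set gave -1.52 on day 5 and only -0.18 on day 0.

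Cyp2j11 moved alongside. In the bound fraction it had levels of 7.67, 6.15 and 5.77 on day 5, against 9.87, 8.37 and 9.90 on day 0, a 7.19-fold fall (-2.85 ± 0.73, adjusted p = 0.0155). On day 5 the unbound arrays were at 8.86, 10.15 and 8.83, all above the bound ones, a 6.72-fold difference (-2.75 ± 0.73, adjusted p = 0.0284). Without arrays 9, 12 and 15 both calls were lost (-2.46, adjusted p = 0.0812, for the day 5 against day 0 comparison and -2.58, adjusted p = 0.154, between fractions). The first was also lost without array 3 or 12 (adjusted p up to 0.0583) and the second without any 1 of arrays 11 to 15 (adjusted p up to 0.112).

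Cyp2e1, which oxidizes ethanol and other small molecules, varied widely within groups. Its bound level was 10.18, 8.75 and 10.25 on day 0, 9.39, 6.13 and 4.77 on day 2, and 7.21, 7.34 and 4.77 on day 5, with the lowest values on arrays 9 and 12. In the unbound fraction it was at 8.27, 9.23 and 6.08 on day 5, against 12.06, 10.38 and 10.92 on day 0. The day 5 arrays were below the day 0 arrays in both fractions, yet neither difference passed (-3.29 ± 1.14, adjusted p = 0.0542, bound; -3.26 ± 1.14, adjusted p = 0.093, unbound). Cyp2c23, the main arachidonic acid epoxygenase of the 2C group in kidney, had a bound level of 7.60, 7.30 and 8.39 on day 0, 5.31, 3.55 and 7.82 on day 2, and 7.26, 6.48 and 5.19 on day 5. It passed no comparison (day 2 against day 0, -2.21 ± 1.00, adjusted p = 0.195).

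Other family 2 genes above the controls passed no comparison. Cyp2d22, another 2D gene, averaged 9.09 ± 0.35 on the bound arrays of day 5 and 8.41 ± 0.12 on day 0 (SD, n = 3 each), without overlap and short of the threshold (0.68 ± 0.37, adjusted p = 0.196). Cyp2j6 averaged 8.01 ± 0.87 on the bound arrays of day 0, against 9.14 ± 0.16 on the unbound arrays (-1.13 ± 0.36, adjusted p = 0.0726). Cyp2j9 and Cyp2d9 were likewise above the controls on all 15 arrays, and Cyp2u1 on 14.

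Of family 3, the large drug-oxidizing group of the liver, only Cyp3a13 was above the controls on all arrays of a group. It had levels of 1.95, 3.72 and 3.39 on the bound arrays of day 5, all at or below the controls, against 5.69, 5.54 and 5.63 on the unbound arrays. The bound fraction was at least 2.21-fold lower (-2.60 ± 0.56, adjusted p = 0.0126). The call held without any 1 array and was lost without the 4 bright arrays (-2.70, adjusted p = 0.0828). Cyp2c70, of family 2, passed as higher in the bound fraction on day 5 but was at or below the controls on every array.

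Family 4 held genes that moved in opposite directions. Cyp4b1, which hydroxylates fatty acids and activates some lung and bladder toxicants, lies on chromosome 4, 115624698 to 115647721. Its bound level was 10.28, 10.39 and 10.92 on day 0, 9.17, 9.07 and 8.38 on day 2, and 7.27, 7.62 and 6.97 on day 5. The 3 groups did not overlap and stood in the order of the days. The message was 9.47-fold lower on day 5 than on day 0 (-3.24 ± 0.53, adjusted p = 0.00131), and the step from day 0 to day 2 did not pass (-1.66 ± 0.53, adjusted p = 0.0701), nor did day 5 against day 2 (-1.59 ± 0.53, adjusted p = 0.177).

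Unbound Cyp4b1 was at 8.97, 9.35 and 6.89 on day 5, against 11.92, 11.11 and 11.18 on day 0, a 7.99-fold fall (-3.00 ± 0.53, adjusted p = 0.00378). The lowest value is that of array 15. Both day 5 calls held under each of 12 other settings and without any 1 array, with differences of -3.39 to -2.97 in the bound and -3.48 to -2.26 in the unbound fraction. Without arrays 9, 12 and 15 the unbound difference was -2.26 (adjusted p = 0.00508).

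**Figure D4:**
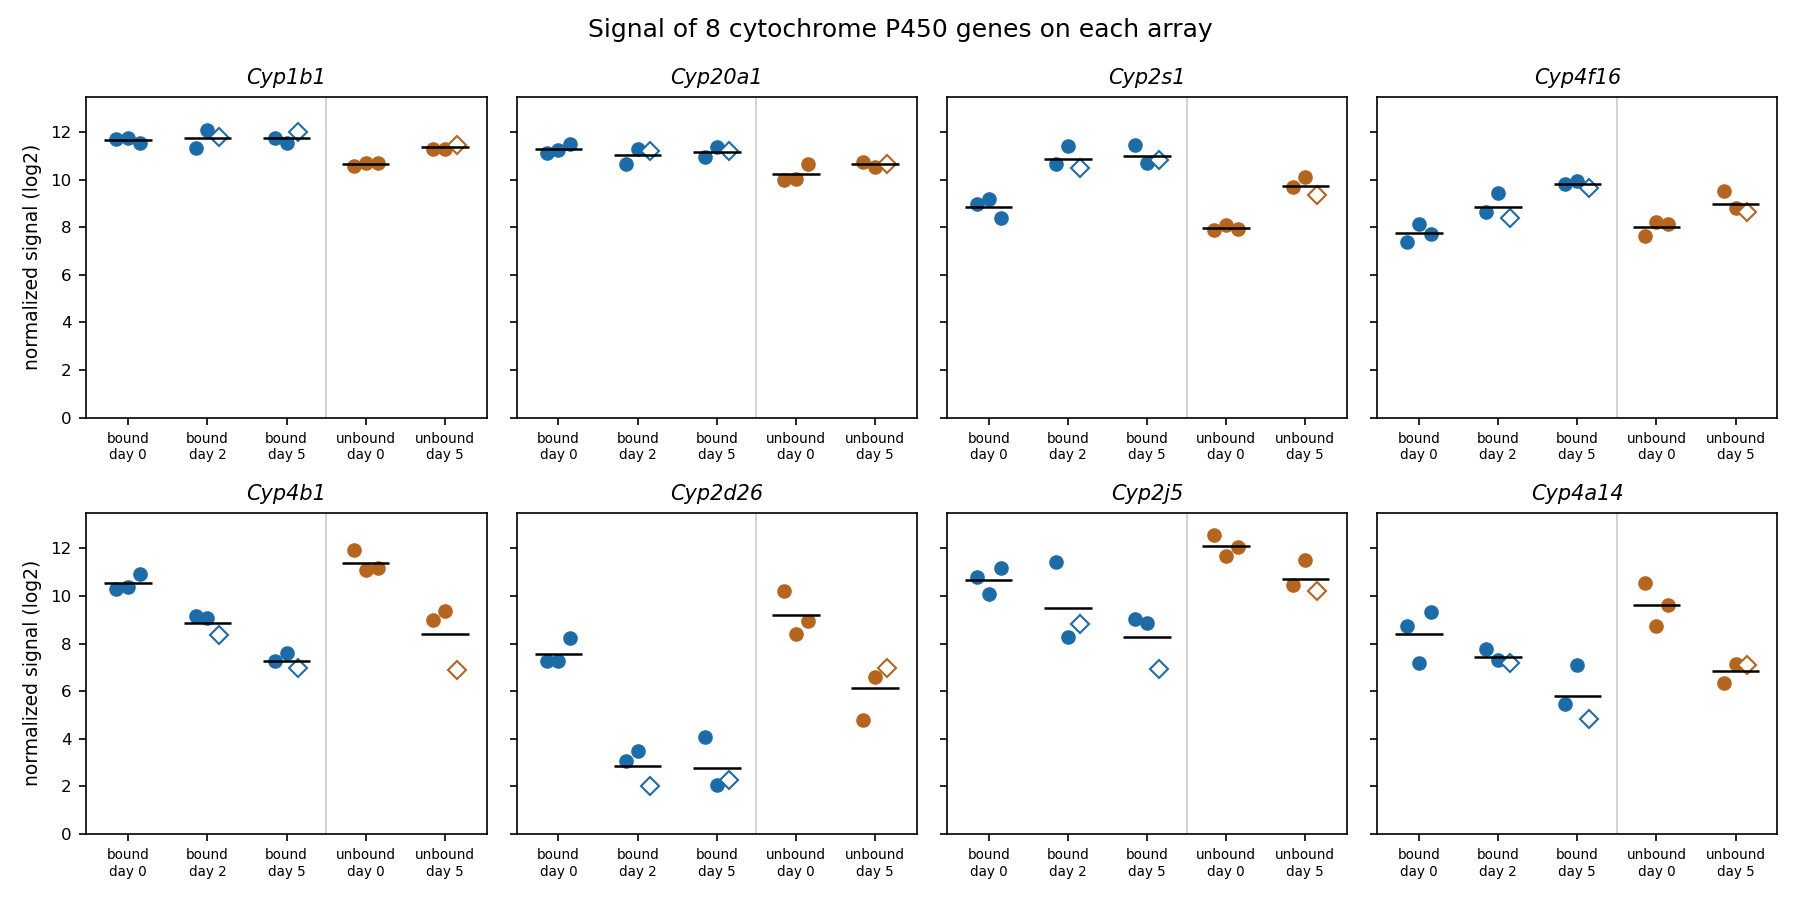
Normalized log2 signal (vertical axis) of 8 cytochrome P450 genes on each of the 15 arrays, by group (horizontal axis; blue bound, brown unbound); each point is 1 array, open diamonds are arrays 9, 12 and 15, and lines are group means. Cyp2s1 was at 10.49 to 11.45 on the 6 bound arrays after obstruction and at 8.38 to 9.20 on day 0, and Cyp4b1 was at 6.97 to 7.62 on day 5 and at 10.28 to 10.92 on day 0.

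Cyp4a14, a fatty acid hydroxylase and textbook target of the lipid sensor Ppara, had bound levels of 5.47, 7.11 and 4.81 on day 5, against 8.72, 7.17 and 9.33 on day 0. It was 6.10-fold lower (-2.61 ± 0.65, adjusted p = 0.0142), although array 11 of day 5 and array 2 of day 0 were nearly level. The unbound arrays were at 6.36, 7.14 and 7.09 on day 5, against 10.55, 8.73 and 9.64 on day 0, a 6.84-fold fall (-2.77 ± 0.65, adjusted p = 0.0186). Without arrays 9, 12 and 15 the bound call was lost (-2.10, adjusted p = 0.0806) and the unbound call held (-2.87, adjusted p = 0.0476). Without the 4 bright arrays both were lost (-2.10, adjusted p = 0.111, bound, and -2.88, adjusted p = 0.114, unbound), and with only its own groups in the fit the bound call was lost (adjusted p = 0.0666). Leaving out array 3 or 12 ended the bound call (adjusted p up to 0.0606) and array 4, 6 or 13 the unbound call (adjusted p up to 0.0854). Without array 2 or 11 the bound difference was larger (-3.23 and -3.29).

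Cyp4a31 belongs to the same 4A cluster and shares sequence with its neighbours, 1 further probe set naming both Cyp4a31 and Cyp4a10. On day 5 it was at 8.14, 8.03 and 5.83 on the bound and 9.93, 10.83 and 9.04 on the unbound arrays, a 6.07-fold difference (-2.60 ± 0.79, adjusted p = 0.0464). That call was lost without any 1 of the 6 arrays (adjusted p up to 0.164; -1.85 without array 12) and without arrays 9, 12 and 15 (-2.30, adjusted p = 0.148). Cyp4f14, a hydroxylase of leukotriene B4, passed as lower in the unbound fraction on day 5, at 1.47, 3.97 and 1.39 with 1 of 3 arrays above the controls, against 5.00, 4.34 and 4.51 on day 0, where 2 of 3 were (-2.34 ± 0.67, adjusted p = 0.0434). With each array set to at least its floor the difference was -0.79, or 1.73-fold, so most of its measured size lay below the controls. Leaving out array 4, 5, 6, 13 or 15 ended that call (adjusted p up to 0.177; -3.17 and still past the threshold without array 14), as did leaving out arrays 9, 12 and 15 (-1.85, adjusted p = 0.145). Cyp4f13, of the same group, averaged 6.54 ± 0.34 on the bound arrays of day 5 and 6.64 ± 0.23 on day 0 (SD, n = 3 each) and passed no comparison (-0.10 ± 0.38, adjusted p = 0.875).

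Cyp4f16, also of the 4F group that inactivates leukotrienes, rose in the bound fraction. It lies on chromosome 17, 32536545 to 32551798. Its level was 7.39, 8.14 and 7.72 on day 0, 8.66, 9.46 and 8.40 on day 2, and 9.82, 9.93 and 9.65 on day 5. The 3 groups did not overlap and ranked in the order of the days. The message was 4.14-fold higher on day 5 than on day 0 (2.05 ± 0.33, adjusted p = 0.00119), and the day 2 difference was 1.09 ± 0.33 (adjusted p = 0.0564). The day 5 call held under each setting and without any 1 array. Its dimmer second probe set gave 0.80, and the mean of both gave 1.42 (adjusted p = 0.0124). That second probe set was highest on day 2, averaging 5.97, 7.17 and 6.77 on the bound arrays of days 0, 2 and 5. In the unbound fraction it gave -0.34 for day 5 against day 0. A further probe set (1 in number) names both Cyp4f16 and Cyp4f37. The probe set used was at 9.51, 8.82 and 8.64 on the unbound arrays of day 5, against 7.63, 8.24 and 8.15 on day 0. These groups did not overlap, and the difference was short of the threshold (0.98 ± 0.33, adjusted p = 0.0785).

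Cyp4v3, the mouse counterpart of a human fatty acid hydroxylase whose loss causes crystalline retinal dystrophy, rose less and in both fractions. The bound arrays were at 9.71, 10.12 and 9.05 on day 5, against 8.59, 8.64 and 8.83 on day 0 (0.94 ± 0.26, 1.92-fold, adjusted p = 0.0217). The unbound arrays were at 9.79, 9.78 and 9.60, against 8.69, 8.89 and 8.92 (0.88 ± 0.26, 1.85-fold, adjusted p = 0.0488). In both the groups were apart. The bound call was lost without array 1, 2, 10 or 11 (adjusted p up to 0.0712) and the unbound call without any 1 of its 6 arrays (adjusted p up to 0.16), while without arrays 9, 12 and 15 both held (1.23, adjusted p = 0.0103, and 0.95, adjusted p = 0.0456). With the mean of both probe sets both calls were lost (0.66, adjusted p = 0.0803, bound, and 0.78, adjusted p = 0.0703, unbound). The bound call was also lost with only its own groups in the fit (adjusted p = 0.0923), and the unbound call with no filter, with median centring (0.60, adjusted p = 0.185) and without the bright arrays (adjusted p = 0.102). Cyp4f18, which hydroxylates leukotriene B4 in neutrophils, had unbound levels of 6.19, 6.03 and 4.63 on day 5, against 3.43, 2.54 and 2.47 on day 0, all at or below the controls. It was at least 2.75-fold higher, short of the threshold (2.80 ± 0.85, adjusted p = 0.0558). In the same comparison 9 of 11 macrophage and monocyte markers were higher, against 6.43% of all genes. Their part in the result was not tested.

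None of the 8 tested genes acting on sterols, bile acids or vitamin D passed any comparison, and 6 of the 9 were above the controls in at least 1 group. Cyp27b1 makes the active vitamin D hormone in the proximal tubule and Cyp24a1 breaks it down. Cyp27b1 was dim, at 5.12, 5.01 and 4.68 on the bound arrays of day 5, against 1.21, 1.27 and 6.41 on day 0, where 1 of 3 arrays was above the controls. The groups overlapped because of array 3 (1.97 ± 1.08, adjusted p = 0.206). The unbound arrays were apart, at 6.13, 5.90 and 6.56 on day 5 against 4.45, 3.83 and 4.72 on day 0 (1.87 ± 1.08, adjusted p = 0.325).

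Cyp24a1 had bound levels of 5.48, 6.22 and 3.94 on day 5, against 7.52, 5.56 and 7.86 on day 0, which overlapped (-1.77 ± 0.79, adjusted p = 0.125). Its second probe set gave -0.09. Cyp2r1, the 25-hydroxylase of vitamin D, was above the controls on 5 of 15 arrays (bound day 5 against day 0, 2.79 ± 1.01, adjusted p = 0.0628). Cyp7b1, which hydroxylates oxysterols and is higher in male mouse tissues, was at 10.95, 11.55 and 10.29 on the bound arrays of day 5 and at 11.69, 11.58 and 11.52 on day 0 (-0.67 ± 0.75, adjusted p = 0.562). In the unbound fraction it was at 11.68, 12.50 and 9.21 on day 5, against 12.94, 12.48 and 12.27 on day 0, the groups overlapping (-1.43 ± 0.75, adjusted p = 0.275). Cyp27a1, the mitochondrial sterol 27-hydroxylase, was at 9.89, 9.30 and 9.27 on the bound and 8.76, 8.78 and 8.52 on the unbound arrays of day 0, apart but not past the threshold (0.80 ± 0.46, adjusted p = 0.306). Cyp39a1, which hydroxylates oxysterols in the bile acid pathway, averaged 9.46 ± 0.53 on the bound arrays of day 5 and 9.02 ± 0.98 on day 0 (SD, n = 3 each; 0.44 ± 0.45, adjusted p = 0.523). Cyp46a1, the cholesterol 24-hydroxylase known from brain, averaged 5.19 ± 0.40 and 4.70 ± 0.34 in the same groups (0.49 ± 0.46, adjusted p = 0.48).

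Other genes of vitamin D handling were read beside these enzymes. Of 10 tested, 5 were lower in the bound fraction on day 5 against day 0 and 0 higher, with a median of -1.65. Over all genes, 10% were lower and 13.7% higher in that comparison, with a median of 0.12. Lrp2 and Cubn, the tubule receptors that retrieve vitamin D with its carrier, were lower by 17.1-fold (-4.09 ± 0.72, adjusted p = 0.00219) and 6.45-fold (-2.69 ± 0.67, adjusted p = 0.0139). Kl, the co-receptor of the phosphate hormone FGF23, was 8.39-fold lower (-3.07 ± 0.50, adjusted p = 0.00136). The calcium-binding proteins Calb1 and S100g, tubule genes known to be inducible by vitamin D, also fell (-2.08 ± 0.59 and -1.88 ± 0.49). The part of vitamin D in these falls was not tested. Lrp2 and Cubn are also counted among the proximal tubule markers below, and Calb1 among those of the loop and distal tubule. Without arrays 9, 12 and 15 the calls of Cubn (-2.40, adjusted p = 0.0743), Calb1 (-1.88, adjusted p = 0.0886) and S100g (-1.79, adjusted p = 0.0757) were lost. So were they without array 3 for Cubn (adjusted p = 0.0555), without array 1, 3, 10 or 12 for Calb1 (adjusted p up to 0.0904) and without array 1 or 10 for S100g (adjusted p up to 0.0656). The vitamin D receptor Vdr was at 9.75 on average on day 5 and 11.16 on day 0 in the bound fraction, short of the threshold (-1.41 ± 0.56, adjusted p = 0.0875).

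The 26 family degrades retinoic acid. Cyp26b1, its member in stromal cells, had bound levels of 6.31, 4.71 and 5.54 on day 5, against 7.36, 7.35 and 5.85 on day 0, overlapping through array 3 (-1.34 ± 0.57, adjusted p = 0.111), and Cyp26a1 was above the controls on 3 of 15 arrays. Genes of retinoic acid synthesis were read beside them. Aldh1a2, which makes retinoic acid from retinal, had bound levels of 8.79, 7.28 and 6.63 on day 0, 12.28, 12.74 and 12.91 on day 2, and 13.12, 12.72 and 13.28 on day 5. It was 33.8-fold higher on day 2 (5.08 ± 0.47, adjusted p = 4.8e-05) and 44.6-fold on day 5 (5.48 ± 0.47, adjusted p = 2.2e-05) than on day 0. Without array 1, the highest of day 0, these differences were 5.69 and 6.09.

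Of 13 retinoid genes tested, 3 were higher and 1 lower in the bound fraction on day 5 against day 0, with a median of 0.30. Over all genes, 13.7% were higher and 10% lower in that comparison, with a median of 0.12. Beside Aldh1a2 the higher retinoid genes were Rdh10, which makes retinal (1.26 ± 0.23, adjusted p = 0.00231), and the retinol transporter Stra6 (at least 7.39-fold). Aldh1a3, another retinal dehydrogenase, was lower (-1.56 ± 0.43, adjusted p = 0.0226), a call lost without array 2, 3 or 11 (adjusted p up to 0.0868).

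Of the 5 steroid hormone genes, whose main site is the adrenal cortex and gonads, Cyp11b1 (steroid 11-beta-hydroxylase) passed 1 comparison. It had levels of 5.17, 6.53 and 6.87 on the bound arrays of day 5, all above the controls, against 3.23, 3.36 and 2.27 on the unbound arrays, all at or below them. The bound fraction was at least 5.11-fold higher (3.23 ± 0.71, adjusted p = 0.0135). The call was lost without array 15 (adjusted p = 0.0562) and without arrays 9, 12 and 15 (2.51, adjusted p = 0.144). The bound arrays of day 2 were at 3.08, 2.97 and 2.76, all at or below the controls, so that day 5 was at least 3.35-fold above day 2, short of the threshold (3.25 ± 0.71, adjusted p = 0.065).

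Other markers of adrenal cortex were measured beside it. The mean level of the 4 markers outside the P450 family (Star, Hsd3b1, Nr5a1 and Mc2r) was 5.54 to 6.24 on the bound arrays of day 5. On the unbound arrays of day 5 it was 4.33 to 5.57. None of these 4 markers passed between the fractions on day 5. Star, which carries cholesterol into mitochondria, differed by 0.62 ± 0.71 and Nr5a1, the factor that drives steroid genes, by -0.46 ± 0.47. Mc2r, the receptor of ACTH, averaged 8.63 on the bound and 6.08 on the unbound arrays of day 5, which did not overlap. Its bound levels were 8.66, 7.96 and 9.26 on day 5, against 6.34, 4.31 and 0.72 on day 0 (4.83 ± 1.22, adjusted p = 0.0147). Array 3 was below the controls, and without it the difference was 3.31 (adjusted p = 0.047), while without array 1 it was 6.12 and without arrays 9, 12 and 15 the call was lost (4.43, adjusted p = 0.0603). It was also higher in the unbound fraction on day 5, at 5.71, 6.49 and 6.04, against 3.35, 1.24 and 0.96 on day 0, all at or below the controls (at least 3.80-fold, adjusted p = 0.0462), a call lost without any 1 of the 6 arrays (adjusted p up to 0.142). Hsd3b1 was at or below the controls on the bound arrays of day 5. The part of adrenal tissue in the Cyp11b1 result was not tested. Cyp11a1 and Cyp21a1 passed no comparison.

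P450 enzymes depend on redox partners. A list of these partners, which also holds the haem-degrading Hmox1, had 8 genes tested. Por and Fdxr, also listed, were not among the genes measured. Of the 8, 2 were higher and 0 lower in the bound fraction on day 5 against day 0, with a median of -0.21. Over all genes, 13.7% were higher and 10% lower in that comparison, with a median of 0.12. Cyb5r3, the reductase of cytochrome b5, was 2.21-fold higher (1.15 ± 0.32, adjusted p = 0.0229), and Hmox1, which degrades haem, 3.84-fold (1.94 ± 0.60, adjusted p = 0.0352). Fdx1, which feeds electrons to the mitochondrial P450s, was lower in the bound than in the unbound fraction on day 0 (-1.61 ± 0.40, adjusted p = 0.0289). Each of these calls was lost without 1 of several arrays, that of Cyb5r3 without array 2, 3 or 10 (adjusted p up to 0.0935), that of Hmox1 without array 2, 3, 10 or 12 (adjusted p up to 0.128) and that of Fdx1 without array 2, 3, 4 or 5 (adjusted p up to 0.112). Those of Cyb5r3 and Hmox1 were also lost without arrays 9, 12 and 15 (adjusted p = 0.0661 and 0.0721).

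Among 18 regulators of P450 genes, 3 rose and 3 fell in the bound fraction on day 5 against day 0, with a median of -0.42. Over all genes, 13.7% rose and 10% fell in that comparison, with a median of 0.12. Ahr had bound levels of 7.98, 8.74 and 8.66 on day 0, 9.30, 9.75 and 9.90 on day 2, and 10.07, 10.71 and 9.66 on day 5. It was 3.21-fold higher on day 5 than on day 0 (1.68 ± 0.30, adjusted p = 0.00214), without overlap, and the bound fraction was below the unbound on day 0 (-1.16 ± 0.30, adjusted p = 0.0325). Ahrr, its repressor, had bound levels of 6.05, 6.34 and 1.00 on day 2, against 9.13, 8.79 and 8.60 on day 0 (-4.38 ± 1.03, adjusted p = 0.0199). Array 9 was below the controls, and without it the difference was -2.64 (adjusted p = 0.00129), while without array 1, 2 or 3 the call was lost (adjusted p up to 0.0544) and without array 7 or 8 the difference was larger (-5.18 and -5.32). Tiparp, an Ahr target that restrains it, was higher on day 5 (0.59 ± 0.20, adjusted p = 0.0461), a call lost without array 2, 3, 10 or 12 (adjusted p up to 0.143). The day 0 call of Ahr between fractions was lost without array 1, 2, 4, 5 or 6 (adjusted p up to 0.112).

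The 3 regulators that fell were Ppara, Hnf4a and Ppargc1a. Ppara, which drives Cyp4a genes, had bound levels of 6.59, 5.82 and 6.58 on day 5, against 7.85, 8.45 and 8.91 on day 0 (-2.07 ± 0.52, adjusted p = 0.0138). Hnf4a, the nuclear receptor of liver and proximal tubule, was 5.64-fold lower (-2.50 ± 0.71, adjusted p = 0.0244), and the coactivator Ppargc1a 6.11-fold (-2.61 ± 0.59, adjusted p = 0.00862). Cebpb, a factor of the acute phase response, was 4.86-fold higher (2.28 ± 0.57, adjusted p = 0.0139). Without arrays 9, 12 and 15 the calls of Hnf4a (-2.05, adjusted p = 0.121), Ppargc1a (-2.26, adjusted p = 0.0558) and Cebpb (2.09, adjusted p = 0.0578) were lost. Array 3 alone ended those of Ppara (adjusted p = 0.0559), Hnf4a (adjusted p = 0.0792) and Cebpb (adjusted p = 0.0594), and array 1, 10 or 12 also that of Hnf4a (adjusted p up to 0.086). Nr1i2 and Nr1i3, the drug sensors that induce families 2 and 3 in liver, were at or below the controls on all bound arrays after obstruction.

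Enzymes that share substrates with the P450s were read from 2 lists. Of 8 genes of eicosanoid and epoxide metabolism, 3 were higher and 0 lower in the bound fraction on day 0. Over all genes, 4.83% were higher and 4.1% lower. Ptgis, prostacyclin synthase, is itself a P450-fold enzyme whose symbol lies outside the rule, and was 5.98-fold higher (2.58 ± 0.42, adjusted p = 0.00394) on day 0 and 7.15-fold (2.84 ± 0.42, adjusted p = 0.0032) on day 5. Ephx1, which opens epoxides, fell in the bound fraction on day 5 against day 0 (-1.42 ± 0.29, adjusted p = 0.00483). Of 16 phase 2 and export genes, which conjugate P450 products, 7 fell and 0 rose in that comparison, with a median of -1.09. Over all genes, 10% fell and 13.7% rose there, with a median of 0.12. Examples are Sult1d1 (-2.11 ± 0.38, adjusted p = 0.00233) and Nqo1 (-1.56 ± 0.36, adjusted p = 0.00953). The call of Nqo1 was lost without arrays 9, 12 and 15 (-1.47, adjusted p = 0.0529).

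Proximal tubule markers moved in the same comparisons as the P450 genes that fell. Of 22 tested, 17 were lower and 0 higher in the bound fraction on day 5 against day 0 (median -2.43), 6 lower on day 2 (median -1.98), and 2 lower in the unbound fraction on day 5 (median -1.70). Over all genes, 10%, 3.67% and 3.93% were lower in those comparisons, and 4.1% and 7.77% between fractions on day 0 and day 5. Between bound and unbound, 7 of the 22 markers were lower on day 5 (median -1.81) and 1 on day 0 (median -0.84). Their mean level on the bound arrays was 9.72 to 10.47 on day 0, 7.37 to 9.53 on day 2 and 7.05 to 7.88 on day 5, and on the unbound arrays 8.83 to 9.72 on day 5, against 10.50 to 11.36 on day 0. Of these markers Slc5a12 was at or below the controls on all bound arrays of day 5 and Ass1 on all unbound arrays of day 5. Array 7, where Cyp2j5 and Cyp2e1 were highest on day 2, had the highest marker level of its group, 9.53. Cyp2c23 was instead highest on array 9 (7.82, against 5.31 on array 7). Cyp2d26 was at or below the controls on every bound array of day 2. Most markers of other tubule segments fell in the bound fraction on day 5 against day 0, 9 of 12 of the loop and distal tubule and 8 of 11 of the collecting duct. Of the loop and distal markers 1 was higher, Trpm6 (2.14), and of the collecting duct markers 0 were. Podocyte markers (6 of 6) and endothelial markers (6 of 12) fell there too. In that comparison 7 of 15 fibroblast, 5 of 11 pericyte and smooth muscle and 5 of 11 macrophage and monocyte markers rose. The part of tubule RNA in the P450 results was not tested.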

How the data were processed

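Polysomal RNA was amplified in 1 round with a NuGEN kit and hybridized to 15 one-colour Affymetrix arrays, per the labels. The authors deposited linear probe set intensities, 1 column an array, without a stated probe summary, background correction or scaling. Array medians lay between 16.4 and 198.8.

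A pseudocount of 1 was added, log2 taken, and the 15 arrays quantile normalized together. Of 45037 probe sets without controls, 34958 matched 1 gene, 932 several and 9147 none, and 34754 were matched by Entrez identifier. Of the 70 P450 genes, 18 have several single-gene probe sets (93 in all), and 4 further probe sets name several genes. Genes above the 25th percentile of an array on at least 3 arrays were tested. The negative controls were 27 bacterial probe sets, the highest of them on an array (3.41 to 5.09) being its floor. Floored folds set each array to at least its floor.

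One limma model (version 3.58.1, R 4.3.3) had a coefficient for each of 5 groups of 3 arrays, 7 contrasts, and variances moderated with 2.32 prior beside 10 residual degrees of freedom. It was tested on simulated data. P-values were adjusted over 16861 genes. Genes were named if they were among the 10 largest called in a direction of a contrast, or landmarks. Other P450 genes and comparisons printed, such as Cyp2c23, Cyp2r1 and Cyp4f18, were chosen after their values were seen. The P450 genes and all lists were chosen with earlier results of these data known. Motifs were searched in RefSeq promoter windows (GRCm38.p6), which hold 51 of the 70 genes, and gene positions are from the same build. Figures were drawn with matplotlib 3.10.9.

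Alternatives changed the filter (none, or the 50th percentile), the scaling (median centring), the pseudocount (16), the probe sets (their mean) or the model (array weights, a trended robust prior, brightness as a covariate, a contrast's own groups alone). Others left out the 4 bright arrays or each array in turn. Leaving out arrays 9, 12 and 15, and the Y-linked mean as a covariate, were added after seeing the data, as were folds with every array at its floor or above and the leaving out of arrays for genes of the lists.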

Additional observations from a re-analysis of the deposited data

How the results depend on the processing

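No paired analysis was possible because each array number occurs once, so no bound array shares its number with an unbound one. For single genes, 399 values of called differences stayed past the threshold under the alternatives and 117 did not, all in the same direction. For bound against unbound on day 0 the count of 3 became 1 with median centring, 0 with the mean of all probe sets, 11 with array weights, 0 without the bright arrays, 5 with only the groups of the contrast, and 0 to 3 with 1 array left out. For day 5 the count of 7 became 12 with array weights, 0 without the bright arrays, 2 without arrays 9, 12 and 15, and 3 to 5 with 1 array left out. The change in enrichment gave 2 in place of 0 with array weights. For bound day 2 against day 0 the count of 4 became 7 with a trended and robust prior, 8 with the Y-linked covariate and 4 to 9 with 1 array left out. For bound day 5 against day 0 the count of 8 became 13 with array weights, 5 without the bright arrays and 5 to 11 with 1 array left out. Between day 5 and day 2 the count of 0 became 1 with a pseudocount of 16, 4 without array 8 and 1 without array 10, a range of 0 to 4. For unbound day 5 against day 0 the count of 7 became 17 with array weights, 2 without the bright arrays, 16 with only the groups of the contrast and 2 to 6 with 1 array left out. Leaving out arrays leaves fewer samples, and for the other settings the cause was not tested. The share of all genes called under each setting is not given here. These shifts in count therefore do not single out the P450 genes. Cyp1b1 in the bound fraction, day 5 against day 0, turned to -0.02 without the bright arrays, without arrays 9, 12 and 15 and without array 12, and lay between -0.02 and 0.20 with 1 array left out. For the same comparison Cyp39a1 was -0.05 with array weights and -0.08 to 0.89 with 1 array left out, and Cyp4f13 was 0.18 with array weights and -0.24 to 0.10 with 1 array left out, none past the threshold. Signals near the negative controls limit 36 of the 70 genes, which were above them on all arrays of no group.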

Other observations

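The deposited intensities carry the brightness of each array with them. Cyp2s1 had a deposited intensity of 4384.2 on array 12, which is bright, and of 543.7 on array 11, which is not, both of the day 5 bound group, and these became normalized levels of 10.85 and 10.69. Cyp4b1 had deposited intensities of 257.2 and 49.9 on the same arrays, which became 6.97 and 7.62.

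Of the 70 genes, 13 lie on chromosome 19 and 10 each on chromosomes 4, 7 and 15. Of the chromosome 4 genes, Cyp4b1, Cyp4a14, Cyp2j5 and Cyp2j11 were called lower in the bound fraction on day 5 against day 0 (10% of all genes were). The others tested there did not pass. Differences were positive for Cyp2j6 (0.71), Cyp2j9 (0.84) and Cyp7a1 (0.51) and negative for Cyp2j13 (-1.48) and Cyp4a31 (-1.6). A link with position was not tested. Between arrays 12 and 15, the day 5 pair low in Y-linked signal, bound minus unbound was 1.49 for Cyp2s1, against 1.18 over the other 4 arrays of that day. It was 0.08 for Cyp4b1, against -1.72 over the other 4, and -4.71 for Cyp2d26, against -2.66. No test was made of this single pair.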
